A study of Mus musculus with 8 samples.

Results

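The 10 genes described here belong to the regulatory T cell program or encode costimulatory and inhibitory receptors of activated T cells: Foxp3, Il2ra, Ikzf2, Ikzf4, Ctla4, Il10, Tnfrsf18, Tnfrsf4, Icos and Lrrc32. They were chosen by symbol, and all 10 were found, as 42 transcripts, among 52661 genes and 133618 transcripts. RNA came from intraepithelial lymphocytes of C57BL/6 mice, the lymphocytes lodged in the gut epithelium, which had been purified on CD45 by flow sorting. For 24 h the cells stood in RPMI medium with 10% serum. In 4 libraries the medium held osteopontin at 2 µg/ml, and in the other 4 libraries, labelled null, none was added. Each group has libraries named 1, 2, A and B. The labels give no age or sex and do not say whether a library is a separate animal, culture or pool, so each p-value rests on library-to-library variation alone, and that variation may be technical. Osteopontin is a secreted glycoprotein that binds CD44 and integrins, and the series asks how the expression profile of these cells differs with it.

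Regulatory T cells restrain other lymphocytes. The transcription factor FOXP3 fixes their identity, with the Ikaros-family factors Helios (Ikzf2) and Eos (Ikzf4) beside it. Their surface carries the high-affinity interleukin-2 receptor chain CD25 (Il2ra), the inhibitory receptor CTLA-4, and the costimulatory receptors ICOS, GITR (Tnfrsf18) and OX40 (Tnfrsf4). GARP (Lrrc32) holds latent TGF-beta on the cell surface, and interleukin-10 (Il10) is secreted. Most of these genes are not exclusive to regulatory T cells: Helios is found in other T cells, and the receptors appear on activated T cells and innate lymphoid cells. In the gut epithelium most lymphocytes are CD8 T cells of the alpha-beta and gamma-delta lineages, and Foxp3 cells are a minority there.

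Library totals ran from 49108969 to 71399847 estimated reads, and 3 reads, used as the detection floor, came to 0.0420 to 0.0611 CPM (reads scaled to a common library size). Markers of T and intraepithelial lymphocytes (12 genes, among them Ptprc, Cd3e, Itgae and Cd8a) summed to between 5310 and 6300 TPM (a length-corrected level) in every library. Plasma cell markers summed to 475.0 to 1340 TPM and mast cell and basophil markers, nearly all of it Kit, to 182.0 to 281.0 TPM, with ranges that overlapped between groups. Libraries B of both groups stood apart. Their counts differed from those of other libraries of their group by a chi-square per degree of freedom of 80.2 to 92.3, against 37.4 to 50.6 for pairs without them, and their enterocyte markers summed to 97.5 TPM (osteopontin) and 78.0 TPM (null) against 33.4 to 40.3 TPM elsewhere. Fold changes without both B libraries are therefore given beside several of the results.

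On the TPM scale, which allows genes to be compared, Ikzf2, Ctla4 and Tnfrsf18 led the 10 genes. They averaged 54.2, 53.9 and 53.0 TPM over the 8 libraries, and their ranges overlapped: Ikzf2 exceeded Ctla4 in 3 of 8 libraries, and Ctla4 exceeded Tnfrsf18 in 5 of 8. Below them a gap with no overlap separated Tnfrsf18 (lowest library 44.3 TPM) from Icos (highest 37.8 TPM). Icos averaged 21.5 TPM and Tnfrsf4 15 TPM, and Icos was the higher of the pair in 7 of 8 libraries although their ranges overlapped. Ikzf4 (6.79 TPM) and Il2ra (3.0 TPM) came next, with Tnfrsf4 above Ikzf4 and Ikzf4 above Il2ra in all 8 libraries. Il10 (1.61 TPM), Foxp3 (0.674 TPM) and Lrrc32 (0.469 TPM) were the rarest and overlapped one another. Helios RNA thus stood far above the RNA of the lineage-defining FOXP3, while Foxp3 ranked 16472nd of 30554 genes with any TPM and Ikzf2 ranked 3651st.

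**Figure D1:**
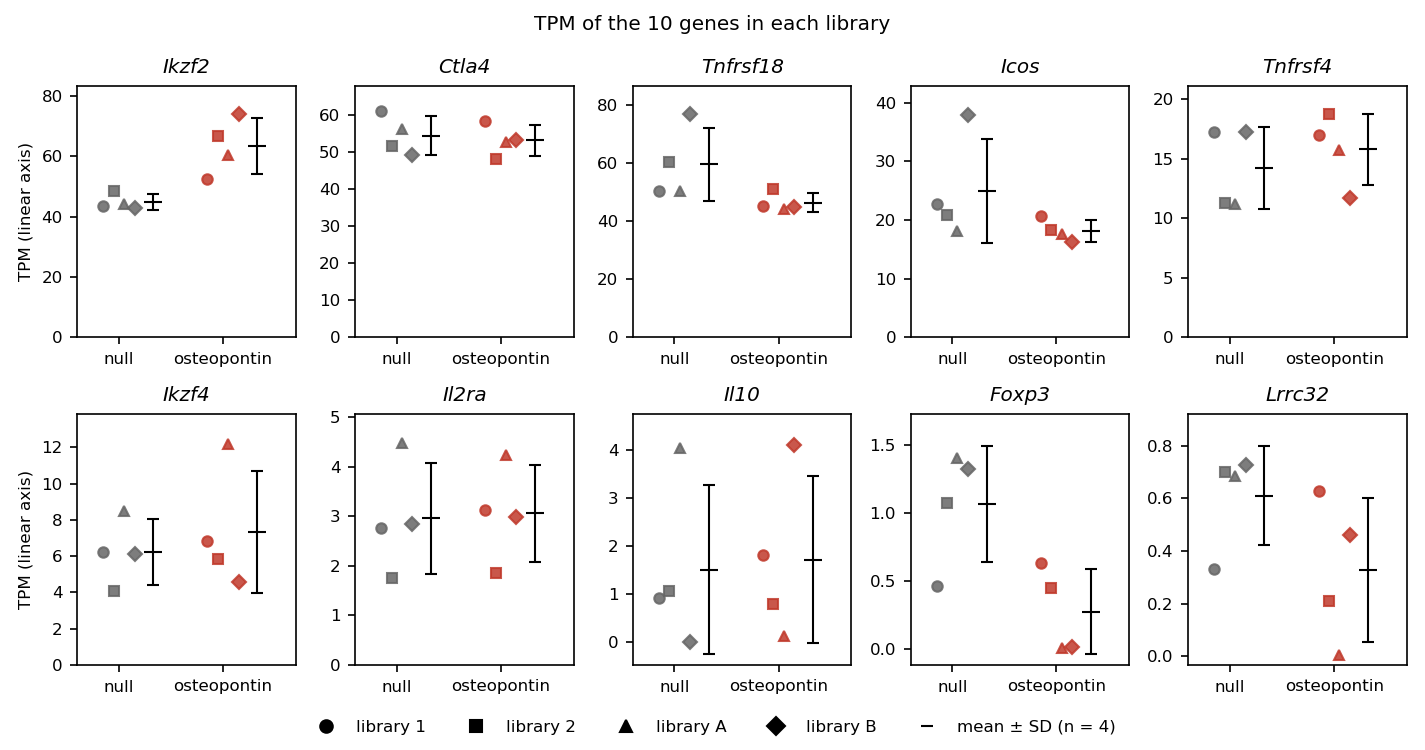
TPM (vertical axes, linear, a separate scale per gene) of the 10 genes in the 4 null (grey) and 4 osteopontin (red) libraries, ordered by mean level; symbols give the library name and black bars the mean ± SD. Ikzf2 is the 1 gene whose groups do not overlap, and Foxp3 lies near 0 in osteopontin libraries A and B.

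None of the 10 genes passed the test of osteopontin against null. edgeR's quasi-likelihood test over all 18631 tested genes called 0 of the 10 higher and 0 lower at an adjusted p under 0.05, as it called 0% of all genes higher and 0% lower, and DESeq2 and limma voom also called 0 of the 10. All 10 genes passed the filter on low counts. Fitted values were higher for 4 and lower for 6, with a median log2 fold change (osteopontin over null, as throughout) of -0.04, against 0.0004 over all tested genes. An unadjusted edgeR p under 0.05 was found for 2 of the 10, Ikzf2 and Tnfrsf18, and for 3.93% of all tested genes. Groups did not overlap in CPM for 1 of the 10, Ikzf2, which was higher; over all tested genes 1.89% lay higher and 1.58% lower without overlap.

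**Figure D2:**
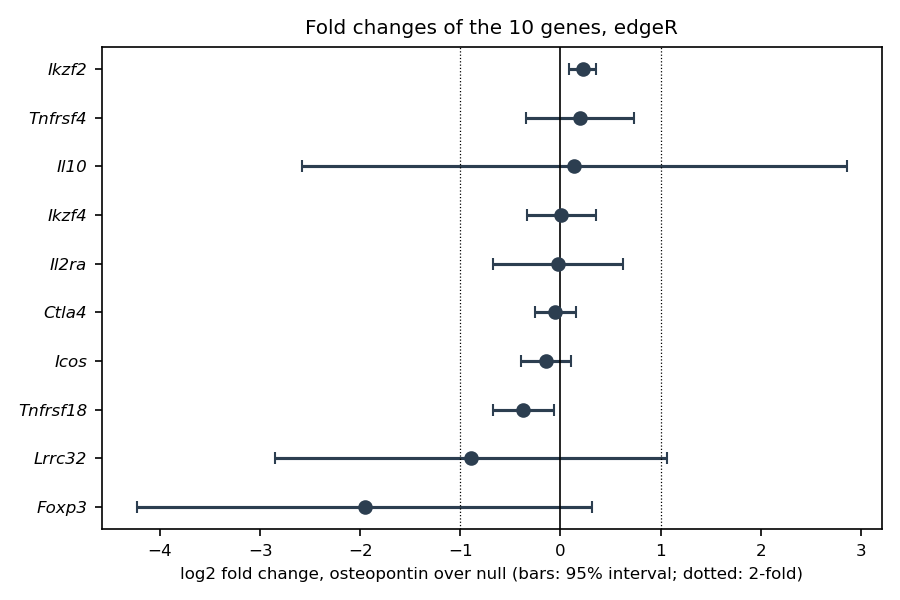
Log2 fold change of each gene (horizontal axis) with its 95% interval from edgeR over 4 osteopontin and 4 null libraries; dotted lines mark a 2-fold change. Intervals of 7 genes lie within a 2-fold change, while those of Il10, Lrrc32 and Foxp3 reach beyond it.

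Foxp3 (chromosome X, 7573644 to 7595245 plus strand; positions here are whole-gene spans of GENCODE M21 on GRCm38) was rare and uneven. Its estimated reads were 112.0, 73.0, 1.00 and 2.00 in osteopontin libraries 1, 2, A, B and 63.0, 175.0, 242.0 and 218.0 in null libraries 1, 2, A and B. In CPM this is 1.57, 1.07, 0.0171 and 0.0406 with osteopontin against 1.09, 2.75, 3.38 and 3.34 without. Osteopontin libraries A and B were therefore under the floor of 3 reads, whereas libraries of both groups named 1 lay close together, so the groups overlapped. The fitted log2 fold change was -1.96 (SE 1.05, 95% interval -4.23 to 0.32, edgeR adjusted p = 1.00). The value moved with the method and with the libraries kept. It was -3.31 with limma voom, -3.35 with the replicate names as a block and -0.70 with limma on log2(TPM + 1). Dropping library 1 of the osteopontin group gave -2.79. Of the libraries under the floor, dropping A gave -1.55 and dropping B gave -1.57. A fit lacking the B library of each group gave -1.43. Adjusted p was at least 0.482 under every alternative.

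In bulk RNA, fewer Foxp3 cells and less Foxp3 RNA per cell cannot be told apart. Cd4, the coreceptor of helper and most regulatory T cells, stood at 41.6, 43.7, 45.4 and 48.7 CPM in osteopontin libraries 1, 2, A, B and at 47.7, 55.3, 48.8 and 53.6 CPM in their null namesakes. It varied by far less than Foxp3 did. Markers of CD4 helper T cells summed to between 586.0 and 655.0 TPM with osteopontin and between 580.0 and 639.0 TPM without. Il7r (357.0 to 424.0 TPM) and Cd6 (102.0 to 129.0 TPM) made up most of each sum, which therefore says little about Cd4. None of the defining markers Cd4 and Zbtb7b was at 0, and all 6 of 6 tested were fitted lower. Zbtb7b stood at 18.1, 15.1, 13.6 and 19.7 TPM with osteopontin and at 23.9, 30.6, 22.5 and 35.2 TPM without. In CPM its groups overlapped (log2 fold change -0.14). The part of CD4 helper T cells in the Foxp3 values was not tested. On the TPM scale Cd4 was less even, at 51.8 TPM in osteopontin library B and 22.9 to 37.1 TPM elsewhere. The log2 ratio of Foxp3 to Cd4 TPM was -5.33 and -5.63 in osteopontin libraries 1 and 2 and -5.99, -5.09, -4.32 and -4.37 in null libraries 1, 2, A and B. In osteopontin libraries A and B, under the floor of 3 Foxp3 reads, the ratio was set by the pseudocount and is not given. The group difference had an exact permutation p = 0.114 (two-sided, adjusted over 6 ratios p = 0.229), and its size was likewise set by the pseudocount, at -3.13 with 0.01 TPM and -1.98 with 0.1 TPM. Leaving out single libraries moved it from -4.05 to -2.21. The smallest p that 4 against 4 libraries allow is 0.0286.

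Foxp3 reads also gathered on different transcripts in different libraries. In osteopontin libraries 2, A and B and null libraries 1 and A all of them were assigned to 1 transcript model, and in null library 2 all were assigned to another. Osteopontin library 1 (105.2 of 112.0 reads) and null library B (212.9 of 218.0 reads) had most of theirs on that other model too. Read numbers were small, and reads shared by overlapping transcripts are divided by estimation, so the transcript in use could not be settled. The assignment was as complete with 242.0 reads in null library A and 175.0 in null library 2 as with 1.00 read in osteopontin library A.

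Ikzf2 (chromosome 1, 69531214 to 69687245, minus strand) was the gene of the 10 with the smallest p. Helios levels were 255.8, 265.5, 267.0 and 234.6 CPM in osteopontin libraries 1, 2, A, B and 209.6, 232.2, 217.2 and 216.1 CPM in their null namesakes. The groups did not overlap, though the margin was small between osteopontin library B and null library 2. Means were 255.7 ± 14.9 and 218.8 ± 9.56 CPM (SD, n = 4 each), a log2 fold change of 0.22 or 1.17-fold (SE 0.06, 95% interval 0.09 to 0.36), which did not pass after adjustment (edgeR adjusted p = 1.00, DESeq2 adjusted p = 0.152). Without both B libraries it was 0.26 (edgeR adjusted p = 0.204).

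On the TPM scale the gap was wider. Ikzf2 stood at 52.6, 66.7, 60.4 and 74.2 TPM with osteopontin and at 43.7, 48.7, 44.1 and 42.9 TPM without, again with no overlap, a separation found higher for 2.21% of all tested genes on this scale. The log2 fold change was 0.49 with limma on log2(TPM + 0.1) (adjusted p = 0.882) and 0.46 in edgeR with effective lengths as an offset. TPM gives more weight to reads on short transcript models, and some Ikzf2 reads were placed on such models. In osteopontin library B 150.3 reads on a model of 361 bases made 25.7 of the 74.2 TPM, against 0 to 6.73 TPM elsewhere. A model of 1359 bases held 11.4 and 10.6 TPM in osteopontin libraries 2 and A. It held 9.37 TPM in null library 2 and at most 3.03 TPM elsewhere. The full-length transcript took between 90.6% and 94.5% of Ikzf2 reads in every library. Its share of Ikzf2 TPM was 71.5%, 56.7%, 62.6% and 47.5% in osteopontin libraries 1, 2, A, B and 70.9%, 68.9%, 70.4% and 72.8% in the null namesakes, a difference of -11.2 percentage points (exact permutation p = 0.114, two-sided, adjusted over 7 genes p = 0.400). The difference was -7.16 points without osteopontin library B and -1.49 points as a share of reads. The null libraries were tight (SD 1.60) and the osteopontin libraries spread (SD 10.1), with library 1 inside the null range and the other 3 below it.

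By reads over all libraries, the main alternative coding form of Helios loses 78 bases, a whole number of codons, from the end of 1 exon (chr1:69577781-69577858). Its junction is set beside the full-length one, because these letters are what a read must span to tell the forms apart. Both are taken from the GENCODE M21 transcripts and read along the transcript, with capitals for the bases after the splice junction, which are the same in both.
Ikzf2 full-length form: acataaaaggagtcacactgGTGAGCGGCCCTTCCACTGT
Ikzf2 shortened form: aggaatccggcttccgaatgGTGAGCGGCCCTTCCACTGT
The shortened form was assigned 580.4, 143.9, 395.2 and 544.2 reads in osteopontin libraries 1, 2, A, B and 400.8, 138.3, 901.8 and 281.1 in the null namesakes. It was highest in null library A and lowest in the libraries named 2 of both groups, and the groups overlapped. Its share of Ikzf2 TPM ran from 2.49% to 12.2% with osteopontin and from 3.43% to 22.2% without.

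Relative to Ikaros (Ikzf1), the founding member of the family, Ikzf2 TPM had a log2 ratio of -1.48 ± 0.363 with osteopontin and -1.91 ± 0.145 without (SD, n = 4 each). The difference of 0.43 had an exact permutation p = 0.0857 (two-sided, adjusted p = 0.229). Leaving out single libraries moved it from 0.286 (without osteopontin library B) to 0.559 (without osteopontin library 1). Ikzf1 itself had a log2 fold change of -0.03. Ikzf4, which encodes Eos (chromosome 10, 128630843 to 128645991, minus strand), stood at 16.7, 16.6, 14.2 and 14.7 CPM with osteopontin and at 15.1, 14.1, 17.3 and 15.4 CPM without. In CPM this was the narrowest spread of the 10 genes (highest over lowest 1.22). In TPM it was not, with Ikzf4 running from 4.09 to 12.2 TPM (highest over lowest 2.98). The groups interleaved, with a log2 fold change of 0.01 (95% interval -0.34 to 0.35, or 0.792-fold to 1.28-fold). Its transcripts were mixed: the leading one took from 31.2% to 93.2% of its TPM, and the highest and lowest shares were in null library 2 and osteopontin library A.

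Il2ra (chromosome 2, 11642807 to 11693193, plus strand), the chain that raises interleukin-2 affinity, stood at 6.52, 5.54, 12.6 and 8.45 CPM in osteopontin libraries 1, 2, A and B. The null libraries of those names had 8.07, 5.31, 11.8 and 8.51 CPM. Library A was the highest and library 2 the lowest in both groups, so same-named libraries lay closer to each other than to the rest of their group at those ends. The log2 fold change was -0.03 (SE 0.31, 95% interval -0.68 to 0.63). CD25 RNA was scarce beside that of its partner chains: Il2rb, which with the common gamma chain forms the intermediate-affinity receptor, ran from 185.6 to 216.6 TPM over the 8 libraries, and the gamma chain Il2rg averaged 281.7 ± 13.3 TPM with osteopontin and 291.0 ± 11.3 TPM without (SD, n = 4 each). The log2 ratio of Il2ra to Il2rb TPM was -6.07 ± 0.518 with osteopontin and -6.15 ± 0.613 without, a difference of 0.09 (exact permutation p = 0.714, two-sided, adjusted p = 0.714).

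Ctla4 and Icos are neighbours on chromosome 1 (60887000 to 60915832 and 60977927 to 61000320, both plus strand, 62.1 kb apart) and encode the inhibitory and the costimulatory relative of CD28. Ctla4 was among the steadiest of the 10 genes, at 70.8, 58.9, 64.4 and 62.4 CPM with osteopontin and 73.8, 64.4, 69.0 and 58.8 CPM without. The ranges overlapped almost wholly, and the log2 fold change was -0.05 (SE 0.10), with an interval of 0.838-fold to 1.11-fold. Within each library Ctla4 lay above Cd28, with a log2 TPM ratio of 1.07, 1.18, 1.31 and 1.43 with osteopontin and 1.04, 1.07, 1.24 and 1.20 without. The ratio differed between groups by 0.11 (exact permutation p = 0.314, two-sided, adjusted p = 0.471).

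Ctla4 RNA was almost wholly of the membrane form. A short transcript skips exon 3 (110 bases, chr1:60913219-60913328), which codes for the membrane span, and is known as the source of soluble CTLA-4; its coding part is 522 bases against 669. The junctions that tell the forms apart are given from the GENCODE M21 transcripts, with capitals for the bases after the junction.
Ctla4 membrane form, exon 2 to exon 3: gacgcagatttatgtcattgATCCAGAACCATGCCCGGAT
Ctla4 short form, exon 2 to exon 4: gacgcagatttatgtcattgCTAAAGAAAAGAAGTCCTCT
No read was assigned to the short form in 7 of the 8 libraries, and 29.1 of 3836 Ctla4 reads were in null library B. The 7 libraries at 0 held between 3069 and 5043 Ctla4 reads each, so the short form was not detectable there at this depth, although Salmon's division of shared reads can set a rare transcript to 0.

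Icos stood at 38.2, 35.4, 37.7 and 33.1 CPM with osteopontin and at 36.9, 37.9, 37.5 and 47.2 CPM without. Null library B was the 1 library apart from the rest. The log2 fold change was -0.14 (SE 0.12, 95% interval -0.39 to 0.11), -0.05 without null library B, -0.01 without both B libraries and -0.48 with effective lengths as an offset. The same library held the most of the shorter Icos transcript, a run-on form in which exon 4 is not spliced to exon 5 but runs on past its donor site, lengthening the coding part from 600 to 669 bases. The letters after position 60995608 (chromosome 1), in capitals, show the difference.
Icos spliced form: caaaaagtctagacttgcagGTGTGACCTC
Icos run-on form: caaaaagtctagacttgcagGTACAGCTCC
The run-on form was assigned 100.7, 63.9, 0 and 0 reads in osteopontin libraries 1, 2, A, B and 160.4, 123.1, 26.8 and 551.7 in the null namesakes. The spliced form accordingly held 83.5%, 88.0%, 100% and 100% of Icos TPM with osteopontin and 71.1%, 78.7%, 95.2% and 47.4% without, a difference of 19.8 percentage points with overlapping groups (exact permutation p = 0.114, two-sided, adjusted p = 0.400). The difference came to 11.2 points without null library B and 6.31 points as a share of reads. The share was higher with osteopontin in 4 of 4 pairs of same-named libraries (exact sign-flip permutation p = 0.125, two-sided, adjusted p = 0.875). The log2 ratio of Icos to Cd28 TPM differed by -0.26 between groups (exact permutation p = 0.686, two-sided, adjusted p = 0.714) and by 0.04 without null library B.

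**Figure D3:**
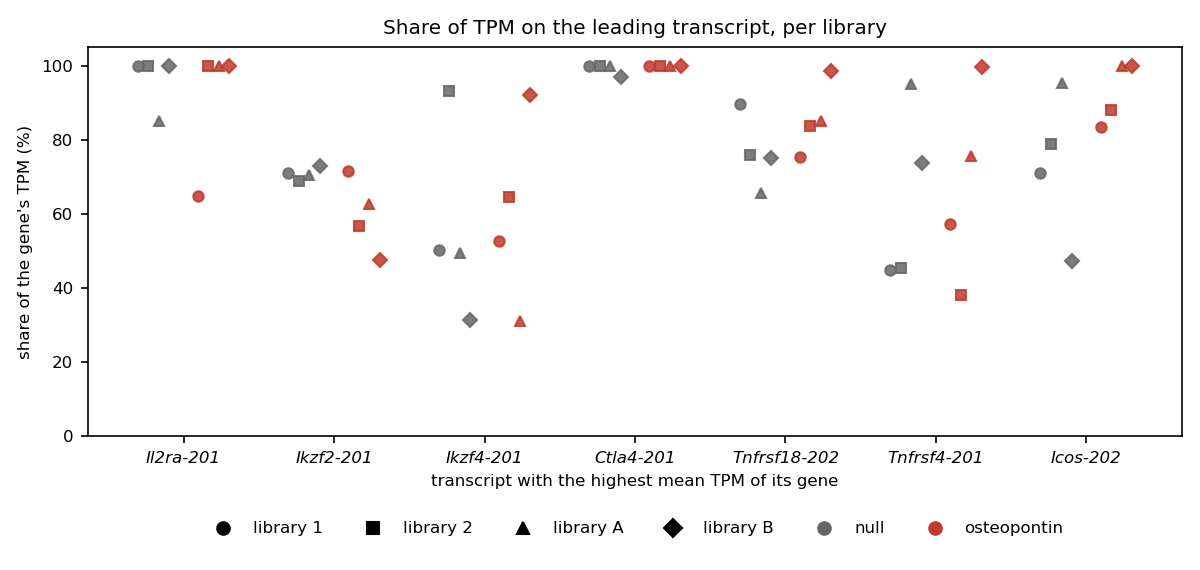
Share of a gene's TPM on its leading transcript (vertical axis, %) for the 7 genes with at least 20 reads in every library, by library symbol and group colour (grey null, red osteopontin). The membrane form of Ctla4 holds at least 96.8% in every library, while the leading transcripts of Ikzf4 and Tnfrsf4 spread from 31.2% to 93.2% and from 38.1% to 99.6%.

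Tnfrsf4 and Tnfrsf18 are neighbours on chromosome 4 (156013843 to 156016612 and 156026164 to 156028895, both plus strand, 9.6 kb apart) and encode OX40 and GITR, costimulators of the TNF receptor superfamily. Tnfrsf18 stood at 29.4, 35.2, 30.3 and 29.8 CPM with osteopontin and at 34.1, 40.7, 34 and 52.7 CPM without. Only osteopontin library 2 reached into the null range, and null library B lay above all others. Within the pairs of same-named libraries it was lower with osteopontin in 4 of 4. The log2 fold change was -0.37 or 0.773-fold (SE 0.14, 95% interval -0.68 to -0.06), with an unadjusted edgeR p of 0.0208 and an adjusted p of 1.00. It was -0.22 without null library B and -0.20 without both B libraries, and -0.58 without null libraries 1 and A, whose fibroblast markers summed to 130.0 and 88.2 TPM against 2.08 to 8.19 TPM elsewhere.

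Null library B was also the highest in Il1rl1, the interleukin-33 receptor and a marker of group 2 innate lymphoid cells, which carry GITR and ICOS. Il1rl1 stood at 10.1 CPM there, at 1.96 to 4.33 CPM in the other null libraries and at 0.583 to 2.15 CPM with osteopontin. Its log2 fold change was -1.74 (SE 0.54, edgeR unadjusted p = 0.00565, adjusted p = 1.00), the 1 of 5 tested markers of these cells with an unadjusted p under 0.05. All 9 markers summed to 57.9 TPM in null library B, to 57.9 to 61.8 TPM over the null libraries and to 59.0 to 69.2 TPM with osteopontin, but Rora (24.9 to 33 TPM) and Gata3 (20.5 to 36.0 TPM), which T cells also express, made up most of each sum. Of the 5 tested 2 were fitted lower. The defining Il17rb went the other way, with a log2 fold change of 0.34. It stood at 1.41 CPM in null library B, below the 1.92 to 4.57 CPM of the other null libraries. With osteopontin it ran from 1.24 to 5.37 CPM. Rora (0.05) and Gata3 (0.09) were also fitted higher. The defining Il13 was at 0 in every library and Il5 in 7 of 8. The part of these cells in the Tnfrsf18 and Icos values of null library B was not tested.

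Tnfrsf4 stood at 8.22, 8.61, 8.30 and 6.52 CPM with osteopontin and at 8.0, 5.11, 6.32 and 8.19 CPM without. Its groups overlapped, and its log2 fold change was 0.20 (SE 0.26, 95% interval -0.34 to 0.74), the opposite sign to its neighbour. Without both B libraries the log2 fold change of Tnfrsf4 was 0.37. The log2 ratio of Tnfrsf18 to Tnfrsf4 TPM was 1.41, 1.45, 1.49 and 1.95 in osteopontin libraries 1, 2, A, B and 1.55, 2.42, 2.17 and 2.16 in the null namesakes. The ratio differed by -0.50 (exact permutation p = 0.0571, two-sided, adjusted over 6 ratios p = 0.229), with osteopontin library B and null library 1 crossing. Within same-named pairs it was lower with osteopontin in 4 of 4 (exact sign-flip permutation p = 0.125, two-sided, the smallest that 4 pairs allow, adjusted p = 0.250).

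GITR reads fell on several transcripts. A short form skips exon 4 of the full-length form (203 bases, chr4:156028221-156028423), which leaves 396 coding bases of 684, and these junction letters from GENCODE M21 distinguish it, with capitals for the bases after the junction.
Tnfrsf18 full-length form, exon 3 to exon 4: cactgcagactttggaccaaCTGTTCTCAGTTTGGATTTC
Tnfrsf18 skipped form, exon 3 to exon 5: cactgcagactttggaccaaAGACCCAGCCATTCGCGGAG
The skipped form was assigned 11.1 reads in osteopontin library B and 0 in the other 7 libraries. More reads went to a transcript that keeps an intron: 228.6, 94.4, 49 and 4.36 in osteopontin libraries 1, 2, A, B and 0, 295.3, 423.9 and 407.6 in the null namesakes, from 0 in null library 1 to the 3 highest values in the other null libraries. The full-length transcript held 85.6% ± 9.60 of Tnfrsf18 TPM with osteopontin and 76.6% ± 9.90 without (SD, n = 4 each; exact permutation p = 0.257, two-sided, adjusted p = 0.600). The difference of 9.02 points was 4.72 points without osteopontin library B and 5.39 points without null library A, and it ran up to 13.4 points without null library 1. A further coding transcript, with 942 coding bases, took 9.42% of Tnfrsf18 reads over all libraries, against 8.28% for the one that keeps an intron. It was assigned 0 reads in osteopontin library B and 159.0 to 409.0 in the other libraries. Summed over protein-coding transcripts alone, the log2 fold change of Tnfrsf18 was -0.25. For Tnfrsf4 the coding transcript held 67.6% ± 26.2 and 64.8% ± 24.3 of TPM, and the rest lay on 2 transcripts with no coding frame.

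Il10 (chromosome 1, 131019845 to 131024974, plus strand), a single-transcript gene, varied more within groups than between them. Its reads were 100, 43.0, 6.00 and 151.0 in osteopontin libraries 1, 2, A, B and 41.0, 54.0, 227.0 and 0 in the null namesakes, or 0.103 to 3.07 CPM and 0 to 3.17 CPM. The count of 0 in null library B allows up to 3 reads, or 0.0458 CPM. The log2 fold change was 0.14 with a 95% interval from -2.58 to 2.86, too wide to place it. It was -1.14 without both B libraries, 1.61 without null libraries 1 and A, and 1.03 with limma voom. Markers of macrophages and dendritic cells, which can also make interleukin-10, summed to 68.0 to 143.0 TPM with osteopontin and to 53.8 to 135.0 TPM without, lowest in null library B, where Il10 was 0, and lowest of its group in osteopontin library B, where Il10 was at its group's highest. None of the defining Csf1r, Adgre1 and Xcr1 was at 0, and of the 8 tested 4 were fitted lower. Of B cells, which can make interleukin-10 too, the defining Ms4a1 stood at 49.6, 36.6, 35.4 and 16.9 TPM with osteopontin and 51.1, 43.6, 42.1 and 60.6 TPM without, and Cd79a was lowest in osteopontin library B (86.3 TPM against 158.0 to 255.0 TPM elsewhere). Osteopontin library B was thus low in these markers and null library B was not. The part of these cells in the Il10, Icos and Tnfrsf18 values was not tested. The receptor chains Il10ra and Il10rb averaged 18.1 and 71.1 TPM with osteopontin and 22.8 and 75.2 TPM without.

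Lrrc32 (chromosome 7, 98489283 to 98502181, plus strand) was the rarest of the 10 per length. GARP reads were 115.0, 44.0, 1.00 and 57.0 in osteopontin libraries 1, 2, A, B and 51.0, 130.0, 106.8 and 128.0 in the null namesakes. Osteopontin library A, with 1 read, was under the floor for Lrrc32 as it was for Foxp3, whereas osteopontin library B had Lrrc32 reads and hardly any of Foxp3. The log2 fold change was -0.89 (SE 0.92, 95% interval -2.85 to 1.07), -0.49 without osteopontin library A, -1.39 without osteopontin library 1, -1.50 with the replicate block, -1.81 with limma voom and -0.30 with limma on log2(TPM + 1). Endothelial cells and platelets also express Lrrc32. Cdh5, which defines endothelial cells, stood at 0.820, 0.0660, 0.180 and 6.19 TPM in osteopontin libraries 1, 2, A, B and at 0.603, 6.00, 0.600 and 5.45 TPM in the null namesakes. Endothelial markers summed to 34 to 83.6 TPM with osteopontin and 44.0 to 80.6 TPM without, none of the defining Pecam1, Cdh5 and Kdr was at 0, and 6 of 7 tested were fitted lower. Of the platelet markers, the defining Ppbp was at 0 in 4 libraries and Pf4 in 6, and the list summed to 7.43 to 32.8 TPM and 8.44 to 20.3 TPM. Their part in the Lrrc32 values was not tested.

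**Figure D4:**
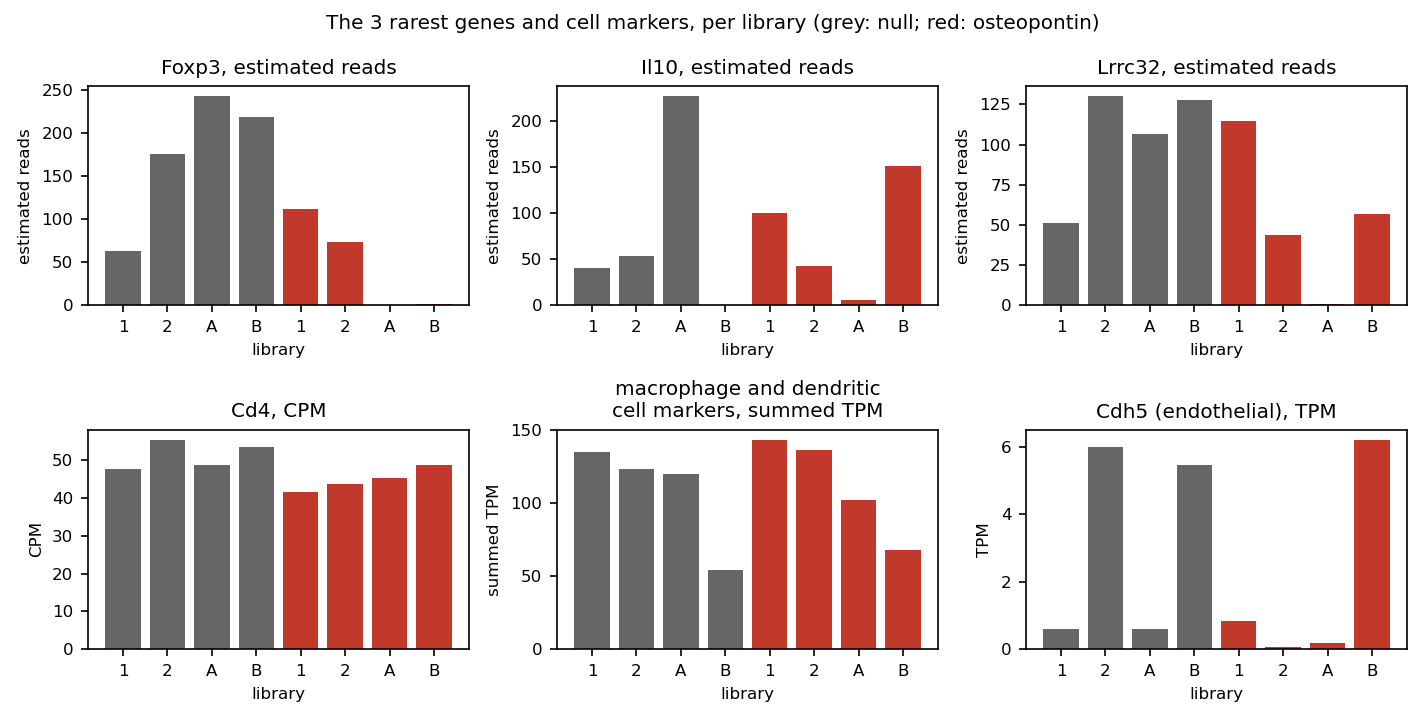
Estimated reads of Foxp3, Il10 and Lrrc32 (top) and Cd4 in CPM, macrophage and dendritic cell markers in summed TPM and Cdh5 in TPM (bottom), 1 bar per library, grey for null and red for osteopontin. Foxp3 has 1 and 2 reads in osteopontin libraries A and B, Il10 has none in null library B, and Cd4 lies between 41.6 and 55.3 CPM throughout.

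The ligands and partner chains of these receptors were not called either. Of 14 such genes 13 were tested, 5 fitted higher and 8 lower, with a median log2 fold change of -0.06, and 0 had an unadjusted edgeR p under 0.05. Cd28 (-0.15) and the integrin chain Itgav (0.12), which pairs with Itgb8 to activate TGF-beta held by GARP, had the smallest p. Ligand RNA was present for some receptors: Icosl, the ICOS ligand, averaged 51.1 ± 6.74 TPM with osteopontin and 46.6 ± 4.52 without (SD, n = 4 each), while the CTLA-4 ligands Cd80 (2.80 and 3.37 TPM) and Cd86 (5.53 and 6.68 TPM) and the OX40 ligand Tnfsf4 (2.27 and 2.41 TPM) were low. The GITR ligand Tnfsf18 averaged 0 and 0.00333 TPM and was not tested. Il2 averaged 4.42 and 4.50 TPM.

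Among 25 cofactors and upstream regulators of Foxp3, 15 were fitted higher and 10 lower (median 0.02), with 0 called. Tet3, a DNA demethylase, had the smallest p of this list, at 206.1 ± 9.64 CPM against 179.1 ± 11.3 CPM in the null group (SD, n = 4 each; log2 fold change 0.20, edgeR adjusted p = 1.00), and its groups did not overlap. Stat5a, which relays interleukin-2 signals, followed (0.20). Tet3 was the 1 gene of the 25 whose groups did not overlap in CPM, where 1.89% of all tested genes lay higher without overlap. Other genes associated with regulatory T cells (22 of 23 tested) were fitted higher for 7 and lower for 15 (median -0.07), with 0 called and 0 at an unadjusted p under 0.05. Nrp1, a surface marker of thymus-derived regulatory T cells, had 3.27 ± 0.900 CPM against 5.47 ± 1.03 CPM in the null group (SD, n = 4 each; log2 fold change -0.74, edgeR adjusted p = 1.00), and its groups did not overlap. Gpr83, at or below 1.08 CPM in every library, had the next smallest p. Nrp1 was the 1 gene of the 22 tested whose groups did not overlap in CPM, where 1.58% of all tested genes lay lower without overlap. Other TNF receptor costimulators and adaptors (12 of 14 tested) were fitted higher for 4 and lower for 8 (median -0.04), with 0 called and Traf2 (-0.16) and Tnfrsf8, at or below 1.30 CPM, nearest.

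The genes whose levels ran most like those of each of the 10 were sought among the 9662 genes whose mean reached 5 CPM, by Pearson's r of log2 CPM over the 8 libraries. For Foxp3 these were Coro1c (r = 0.983), Numb (0.959) and Hras (0.959), and for Ikzf2 they were Wdr26 (0.945), Txnip (0.933) and Irf2bp2 (0.929). The nearest gene was Timm44 (0.990) for Il2ra, Snapc4 (0.946) for Ikzf4, Ppp1r11 (0.976) for Ctla4, Hdac1 (0.968) for Icos, Ifrd2 (0.968) for Tnfrsf18, Tyms (0.953) for Tnfrsf4, Mrpl2 (0.986) for Il10 and Socs5 (0.965) for Lrrc32. No gene was nearest to more than 1 of the 10. These values are the highest of 9662 over only 8 libraries, and describe these libraries. All genes of a library share its depth and scaling. Foxp3, Il10 and Lrrc32 each had a library at or under 3 reads, which can weigh heavily in their r.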

How the data were processed

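RNA sequencing of 4 osteopontin and 4 null libraries was analysed from 1 transcript table per library. Per the submitters' processing notes the tables come from Salmon. Neither version nor index nor build is stated in these sources. In each deposited table are estimated counts per transcript, which need not be whole, and TPM, computed by the authors over all transcripts of a library. Libraries were prepared with a stranded Illumina protocol from micro-kit RNA, per the labels' protocols. Salmon divides reads among overlapping transcripts, so counts of rare transcripts are uncertain, and the 3-read floor covers counting error only.

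Estimated counts were summed per gene and rounded. Groups were compared with edgeR 4.0.16 (glmQLFit, robust, group as the only term, filterByExpr with a minimum count of 10, TMM), with Benjamini-Hochberg adjustment over 18631 genes and 95% intervals from moderated degrees of freedom. CPM are TMM-scaled. Shares and ratios (pseudocount 0.01 TPM) were compared by exact permutation tests over 70 arrangements. The fit was tested on simulated data. Libraries of the same name deviated together from their group means (r = 0.133, 0.204, 0.184 and 0.216 for 1, 2, A and B over 10616 genes), and each osteopontin library correlated best with its null namesake. The pairing comes from the names in the labels alone, and the block was run as an alternative. For shares and ratios, exact sign flips within the 4 pairs (16 arrangements) were added after seeing the data.

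The 10 genes and the lists were chosen with earlier results of these data known. Named beside the 10 were the 2 listed genes with the smallest p per list, the partners of the ratios, the 3 likest genes per member (fewer are printed; predicted and clone-named genes and antigen receptor segments were left out) and defining markers. Icosl, Cd80, Cd86, Tnfsf4, Tnfsf18, Il2, Il2rg, Il10ra and Il10rb were named after their values were seen. Positions and junction sequences are from GENCODE M21 (GRCm38): all 10 gene identifiers matched, and 40 of 42 transcripts had the same versioned identifier and length. Alternatives were DESeq2 1.42.0, limma 3.58.1 (voom, and log2 TPM with pseudocounts of 0.1 and 1), other scalings, no filter, the replicate block, the digit or letter of the name, effective lengths, coding transcripts only, and leaving out libraries. The full sum of a marker list is not reported here.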

Additional observations from a re-analysis of the deposited data

Results flagged for a closer look

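In groups of 4 libraries, 9 of 66 sets of values had 1 library so far from the other 3 that Dixon's 95% limit on the gap was passed, which chance gives for about 1 group in 20 where values are untied and sets independent. That rate does not apply here as a whole: in the 3 transcript shares named below the other 3 libraries were tied at their maximum, so any departure passes, and Tnfrsf18 is counted on 2 scales. Null library B was apart in Icos, at 47.2 CPM against 36.9 to 37.9 CPM, and in the log2 ratio of Icos to Cd28, at 0.83 against -0.40 to -0.24, and it was the 1 null library with less than all Ctla4 TPM on the membrane form (96.8%). Tnfrsf18 stood apart in osteopontin library 2, at 35.2 CPM and 51.2 TPM against 29.4 to 30.3 CPM and 44.3 to 45.1 TPM. The log2 ratio of Tnfrsf18 to Tnfrsf4 stood apart in osteopontin library B, at 1.95 against 1.41 to 1.49. Lrrc32 was low in null library 1, at 0.330 TPM against 0.685 to 0.728 TPM. The leading Il2ra transcript held 64.9% of Il2ra TPM in osteopontin library 1 and 85.1% in null library A, and all of it in the other 6 libraries.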

How the results depend on the processing

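No alternative called any of the 10 genes: 194 of 210 fold changes kept their direction and 16 turned, with a smallest adjusted p of 0.152. No share or ratio was called either, but the exact permutation tests could hardly call one. A single share or ratio at their smallest p of 0.0286 would not pass 0.05 after adjustment. The lack of calls among shares and ratios therefore says little. Over all genes edgeR called 0, DESeq2 called 41 (12 higher, 29 lower), edgeR with no filter 4, limma on log2(TPM + 1) 1, and edgeR without both B libraries 49 (1 higher, 48 lower). Leaving out 1 library gave 0 to 37 calls, most without osteopontin library B, and 1 call when osteopontin library 2 or a null library named 1 or 2 was left out. The replicate block called 0 genes and changed no call (Ikzf2 0.22, adjusted p = 0.757 in the paired fit). Sign flips within pairs as a replicate block, added after seeing the data, gave no share or ratio an adjusted p under 0.250; 4 pairs cannot go below p = 0.125 by this exact test. Il2ra turned to 0.015 with the effective-length offset, to 0.064 and 0.046 with limma on log2 TPM (pseudocounts 0.1 and 1) and to 0.258 without null libraries 1 and A, and ran from -0.302 to 0.179 over single libraries left out. Ctla4 turned to 0.056 without null libraries 1 and A. Il10 turned to -1.14 without both B libraries and ran from -0.727 to 1.32 over single libraries left out, and Ikzf4 from -0.035 to 0.064. With single libraries left out the difference in leading-transcript share ran from -8.77 to 3.73 points for Il2ra, -6.61 to 16.4 for Ikzf4 and -7.86 to 12.9 for Tnfrsf4, which was -1.30 on reads. The log2 ratio difference ran from -0.153 to 0.345 for Il2ra to Il2rb and from -0.371 to 0.037 for Icos to Cd28. The cause of these turns was not tested. Foxp3, Il10 and Lrrc32, each with a library at or under 3 reads, had the widest intervals of the 10 genes.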
